A study of Mus musculus with 6 samples.

Results

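The 10 genes described here mark resident macrophages and monocytes of the heart or act in them: the growth factor gene Csf1 and its receptor gene Csf1r, the surface receptor genes Lyve1, Folr2, Mrc1 and Cd163, the general macrophage genes Adgre1 and Itgam, and the receptor and adaptor genes Cd14 and Tyrobp. They were chosen with earlier results of these data known, so counts over them are a description, and were found by symbol in the platform annotation. All 10 were among the 18193 genes measured, on 16 of 45037 probe sets (short probe groups that each report 1 transcript region). For 7 of the genes there was 1 probe set, and for the other 3, Lyve1, Csf1r and Csf1, the brightest over the 6 arrays is the main one. The hearts came from TNFαDes-/- mice, which lack the muscle intermediate filament desmin and overexpress the inflammatory cytokine TNF-α in the heart. They were compared with hearts of Des-/- mice, which lack desmin without the transgene, so both groups carry the desmin deletion. Each group had 3 arrays of myocardium from mice 3 months old. The TNFαDes-/- mice were on a mixed 129SV/C57 background and the Des-/- mice were 129SV, so the transgene cannot be told apart from strain. The series title calls the overexpression cardiac-specific, and the labels do not name the promoter that drives it. The labels describe a pool of RNA from 3 hearts for each genotype, whereas the series text counts 3 mice per genotype. Whether the arrays of a group are separate animals is thus not known, and each p-value rests on the spread among arrays alone, which may be technical.

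The healthy heart holds macrophages that settled before birth and renew in place, and others that arise from blood monocytes. Both kinds depend on the CSF1 receptor, a tyrosine kinase bound by the growth factors CSF1 and IL-34. In mouse heart, resident cells beside vessels typically carry the hyaluronan receptor LYVE1, the folate receptor FOLR2, the mannose receptor MRC1 and the haemoglobin scavenger receptor CD163, whereas recently recruited monocyte-derived cells carry the chemokine receptor CCR2. None of the 10 transcripts is exclusive to macrophages: Lyve1 is also a gene of lymphatic endothelium, and Csf1 is made by fibroblasts and endothelium. In RNA of whole myocardium, fewer cells of a type and less RNA per cell cannot be told apart.

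All values are log2 expression as the authors deposited them, so a difference of 1 is 2-fold. Array medians lay between 5.02 and 5.08, and a probe set below them is not shown to be above background, since the table holds no detection calls. The 99th percentile was 12.31 to 12.34 on the TNFαDes-/- arrays, and 12.30, 11.77 and 11.71 on Des-/- replicates 1, 2 and 3, so Des-/- replicate 1 stood apart from the other two of its group. The count over the 10 genes is therefore also given without it, and their median change without the other 2. The log2 ratio of 3′ to 5′ control probe sets of Gapdh, a measure of RNA quality, was 0.32 ± 0.04 in TNFαDes-/- and -0.01 ± 0.03 in Des-/- hearts (SD, n = 3). For Actb this ratio was 0.73 ± 0.10 in TNFαDes-/- and 0.48 ± 0.08 in Des-/- hearts (SD, n = 3). Both ratios were thus higher in TNFαDes-/- hearts, and the part of RNA quality in the results was not tested. The single Tnf probe set gave 5.94 ± 0.19 in TNFαDes-/- and 5.87 ± 0.09 in Des-/- hearts (SD, n = 3; limma adjusted p = 0.746), and whether it lies within the transgene is not known. The Des probe set, in hearts that carry the deletion in both groups, read 8.79 ± 0.08 in TNFαDes-/- and 8.40 ± 0.06 in Des-/- hearts (SD, n = 3; limma adjusted p = 0.0219), above the median of every array. Whether it lies within the deleted part is not known, so it does not check the labels. All 8 cardiomyocyte markers lay above the median of every array, which fits the labelled tissue.

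Of the 10 genes, 8 were higher in TNFαDes-/- hearts and 0 were lower (limma, adjusted p under 0.05 over all genes). Of all genes, 21.3% passed by the same rule, 15.2% higher and 6.05% lower. Of the 16 probe sets, 11 were higher and 0 lower when all probe sets were tested together, against 14.9% of all probe sets called, 9.94% higher and 4.93% lower. The 8 were Cd14, Lyve1, Cd163, Csf1r, Csf1, Folr2, Mrc1 and Adgre1, in order of the size of the change; Itgam and Tyrobp did not pass. The median log2 change over the 10 was 0.59, against 0.04 over all genes. Bright genes as a whole also tended upward: of the 6085 genes with mean levels between those of Folr2 and Csf1r, a range that holds 9 of the 10, 28.4% were higher and 6.61% lower, with a median of 0.21. The groups did not overlap for 9 of the 10 genes, as for 38.0% of all genes; 8 of the 9 were higher (24.3% of all genes) and 1, Tyrobp, was lower (13.7%). Without Des-/- replicate 1 the count was again 8 higher and 0 lower, while 4257 of all 18193 genes were higher, against 2768 as deposited. In that setting 44.9% of the 6085 genes between Folr2 and Csf1r in level were higher. With Des-/- replicate 1 as the only Des-/- array, the median change over the 10 was 0.42, against 0.04 over all genes and 0.06 over those 6085. Any call in that setting assumes that the lone array varies like the others. Quantile normalization, which gives all arrays 1 distribution, left 7 higher and called Tyrobp lower. It called 2190 of all genes higher and 1897 lower, and of the 6085 genes in that range 19.2% higher and 15.4% lower.

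**Figure D1:**
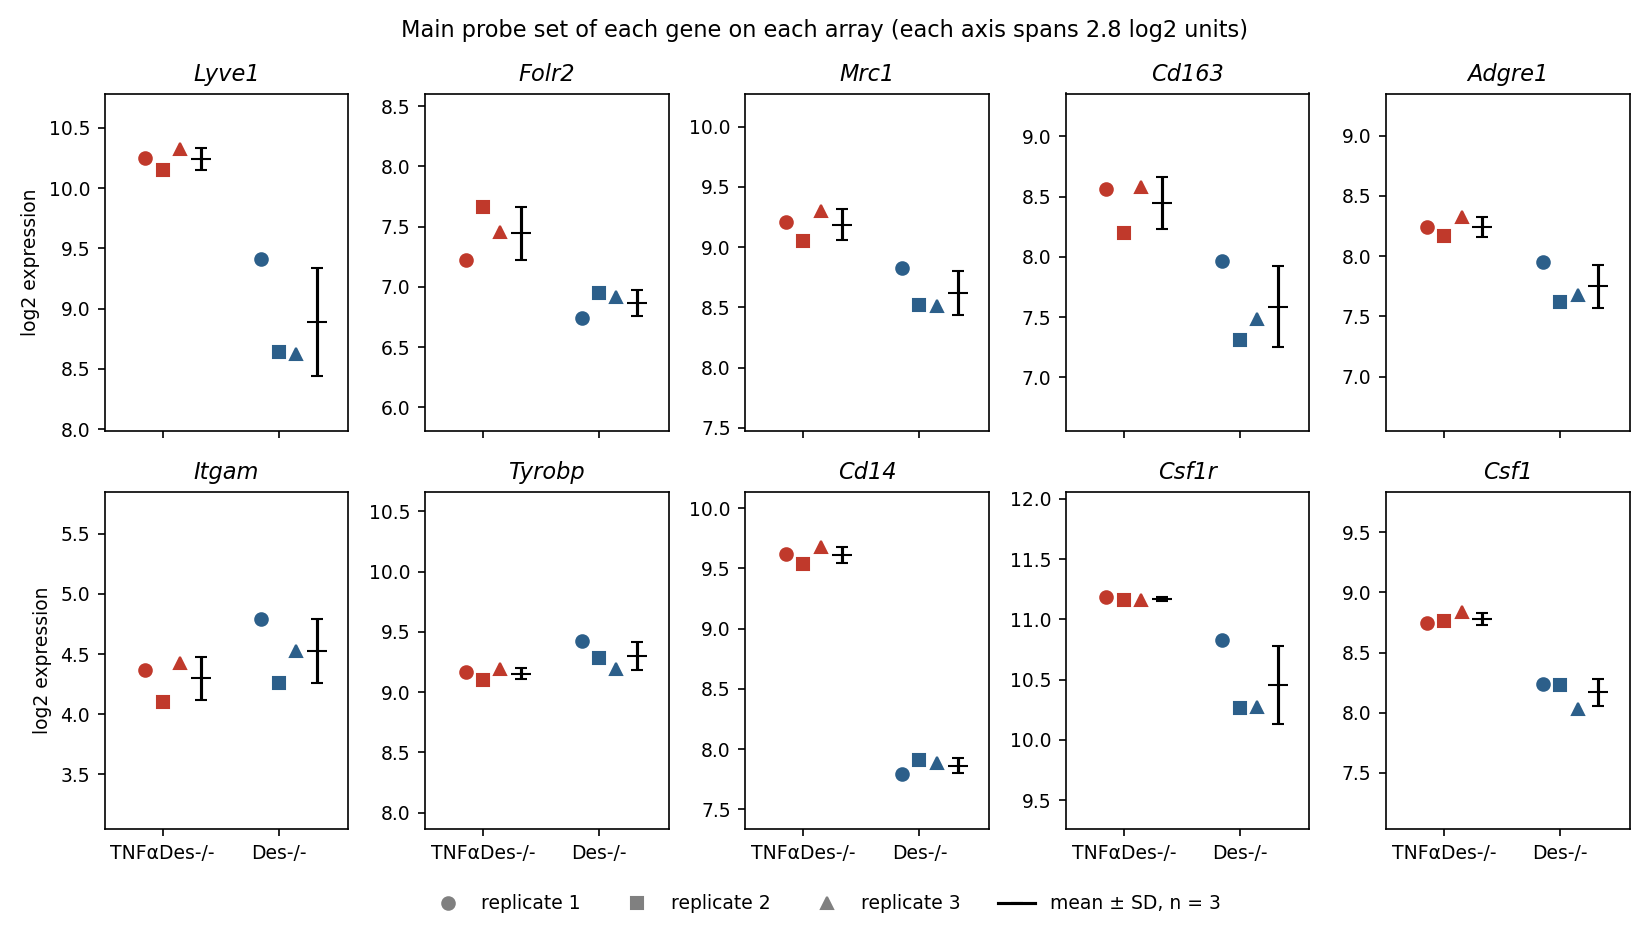
Each panel plots the log2 expression of 1 gene on its main probe set for TNFαDes-/- arrays (red, left) and Des-/- arrays (blue, right), with the mean and SD of 3 arrays in black. The groups are apart for all genes but Itgam, by less than the width of a symbol for Tyrobp, and Des-/- replicate 1 (circle) is the highest Des-/- array for Lyve1, Mrc1, Cd163, Adgre1, Itgam, Tyrobp, Csf1r and Csf1.

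Csf1 encodes the growth factor that macrophages need to survive and divide. Its main probe set, 1460220_a_at, read 8.74, 8.76 and 8.83 in TNFαDes-/- hearts, against 8.24, 8.23 and 8.03 in Des-/- hearts. All TNFαDes-/- arrays lay above all Des-/- arrays, and the rise was 0.61 ± 0.10 (SE), or 1.53-fold (95% confidence interval 1.30 to 1.79; limma adjusted p = 0.00395). The other 3 probe sets of Csf1 did not pass: 1448914_a_at gave 0.46 ± 0.14 (adjusted p = 0.0665), 1425154_a_at gave 0.07 ± 0.11 and 1425155_x_at gave 0.08 ± 0.10. On each array, the difference between the main probe set and 1425154_a_at was 0.77 to 1.12 in TNFαDes-/- hearts and 0.25 to 0.58 in Des-/- hearts. For 1425155_x_at the same difference was 2.61 to 2.82 in TNFαDes-/- hearts and 2.17 to 2.20 in Des-/- hearts. In both cases the groups did not overlap (exact permutation test, two-sided, p = 0.1, the smallest that 3 against 3 arrays allow; 0.3 adjusted over 6 such pairs). The group means of these differences lay 0.53 apart in both cases, beyond the SD within either group (at most 0.18). Averaged over its 4 probe sets, the rise was 0.31, which passed.

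The promoter of Csf1 is shown because the study altered TNF-α, whose signalling acts through NF-κB. It was searched for 3 motifs on both strands, together with the other promoters in the RefSeq table of build GRCm38.p6, each reaching from 250 bases before to 50 bases after the gene's start. The motifs were an NF-κB form (GGGA, any base, then TTTCC), the core of the macrophage factor PU.1, GAGGAA, and a C/EBP form, TTGCNNAA; the PU.1 core can share bases with the NF-κB form, and no matches shown here overlap. Of 32851 promoters, 0.411% hold the NF-κB form, 28.3% the PU.1 core and 10.8% the C/EBP form. Of the 10 genes, 5 have an entry (Csf1, Mrc1, Cd163, Folr2 and Itgam), with 6 promoters between them. The Csf1 promoter holds 1 match to the NF-κB form, in capitals, on the strand opposite to the gene and starting 154 bases before its start, and no match to the other two.
Csf1 (chr3:107760420-107760719, minus strand): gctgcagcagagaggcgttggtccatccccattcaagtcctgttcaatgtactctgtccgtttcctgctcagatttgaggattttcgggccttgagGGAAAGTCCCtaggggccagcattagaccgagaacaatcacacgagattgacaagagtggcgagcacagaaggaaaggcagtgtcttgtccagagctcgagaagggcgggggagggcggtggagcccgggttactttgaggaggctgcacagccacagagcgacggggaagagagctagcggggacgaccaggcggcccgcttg

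Csf1r, the receptor for CSF1, was measured on 3 probe sets and was higher on all 3. The main one, 1419872_at, read 11.19, 11.16 and 11.16 in TNFαDes-/- hearts, against 10.83, 10.26 and 10.28 in Des-/- hearts. The TNFαDes-/- arrays were nearly equal, and Des-/- replicate 1 stood between them and the other Des-/- arrays. The rise was 0.71 ± 0.15 (SE), or 1.64-fold (95% confidence interval 1.29 to 2.10; limma adjusted p = 0.0128). On 1419873_s_at, where replicate 1 (9.28) lay beside the other Des-/- arrays (9.26 and 9.20), the TNFαDes-/- arrays read 9.81, 9.74 and 9.81 and the rise was 0.53 ± 0.09. On 1423593_a_at it was 0.39 ± 0.09 (adjusted p = 0.0266). The difference between the main probe set and 1419873_s_at was 1.39 ± 0.03 in TNFαDes-/- and 1.21 ± 0.30 in Des-/- hearts (SD, n = 3), and that to 1423593_a_at was 1.77 ± 0.06 in TNFαDes-/- and 1.44 ± 0.26 in Des-/- hearts. Both overlapped between the groups, which does not show that the probe sets change alike. The call on the main probe set was lost without TNFαDes-/- replicate 1 (0.71, adjusted p = 0.055), TNFαDes-/- replicate 3 (0.72, 0.0537), Des-/- replicate 2 (0.62, 0.0524) or Des-/- replicate 3 (0.62, 0.0518), and after quantile normalization the rise was 0.35, which passed.

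**Figure D2:**
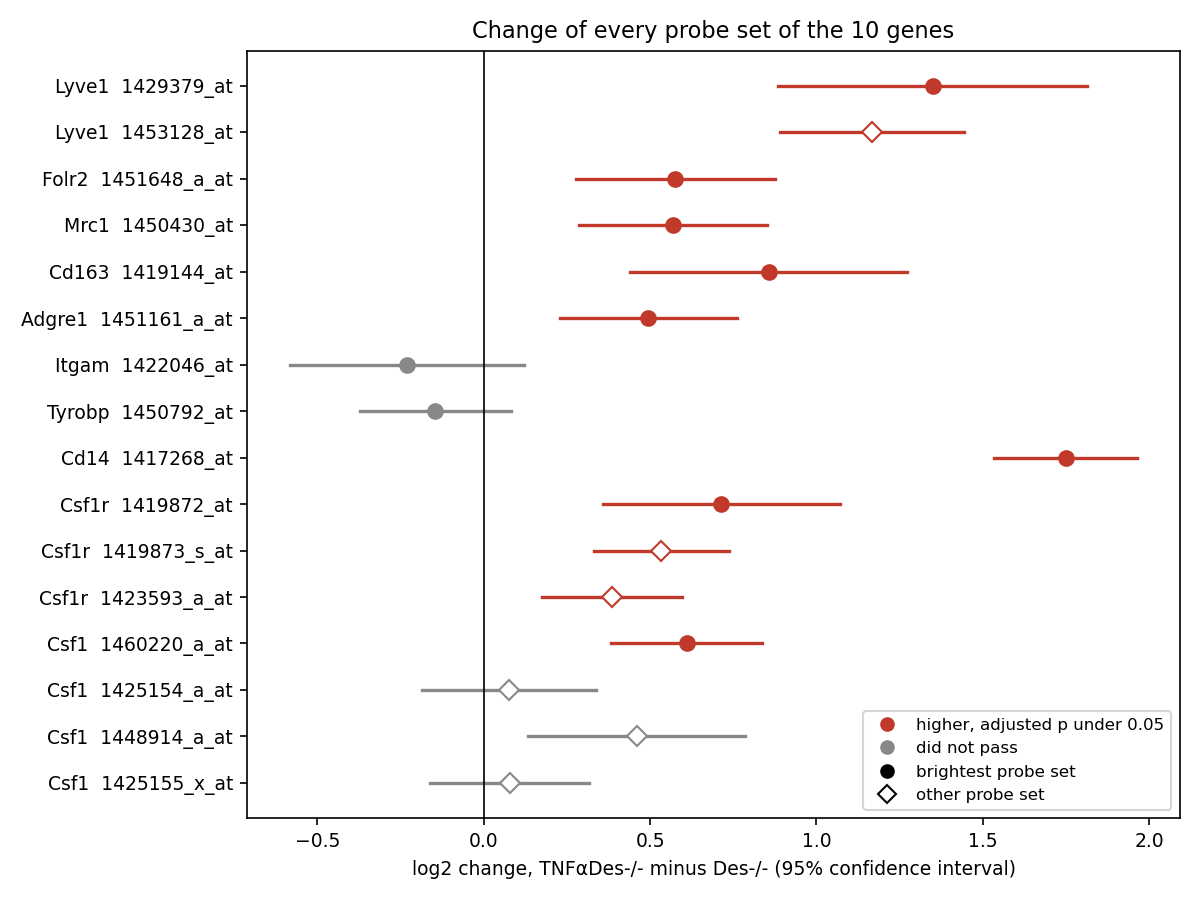
Points give the log2 change of each of the 16 probe sets, TNFαDes-/- minus Des-/-, with 95% confidence intervals; red marks an adjusted p under 0.05 over all probe sets, grey the others, filled circles the main probe sets and open diamonds the others. Both Lyve1 and all 3 Csf1r probe sets lie above 0, while 2 of the 4 Csf1 probe sets lie near 0, at 0.07 and 0.08.

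Lyve1, the hyaluronan receptor of resident macrophages and lymphatic vessels, had the second largest rise of the 10. It read 10.25, 10.15 and 10.32 in TNFαDes-/- hearts, against 9.41, 8.64 and 8.62 in Des-/- hearts. The TNFαDes-/- arrays were alike, and Des-/- replicate 1 was the highest Des-/- array. The rise was 1.35 ± 0.20 (SE), or 2.55-fold (95% confidence interval 1.86 to 3.50; limma adjusted p = 0.00241), and 138 genes had a larger one. The other probe set, 1453128_at, read 9.09, 9.03 and 9.05 in TNFαDes-/- hearts, against 8.13, 7.77 and 7.78 in Des-/- hearts, a rise of 1.17 ± 0.12. The call held under all 19 alternative settings, where the rise was 0.83 to 1.61; against Des-/- replicate 1 alone it was 0.83.

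Markers of lymphatic endothelium, which also carries Lyve1, were counted beside it, and their part in its rise was not tested. Of the 5 measured, 3 fell and 0 rose, against 6.05% lower and 15.2% higher among all genes. Their mean log2 level was 6.39 to 6.43 in TNFαDes-/- and 6.96 to 7.24 in Des-/- hearts. Reln, a secreted glycoprotein of these vessels, read 5.81, 5.53 and 5.63 in TNFαDes-/- hearts, against 6.91, 6.95 and 7.09 in Des-/- hearts, and fell by 1.33 on the log2 scale (adjusted p in limma = 0.000154). Mmrn1 fell by 1.24 (adjusted p = 0.000925). Averaged over their probe sets, Reln fell by 0.72 and Mmrn1 by 0.61. Prox1, the transcription factor that sets lymphatic identity, fell by 0.93 (adjusted p = 0.0423), or by 0.60 without Des-/- replicate 1. Its TNFαDes-/- values, 4.66, 5.23 and 5.16, are near the array medians, so the size of its fall is uncertain. The Prox1 call was lost without any 1 TNFαDes-/- array (adjusted p up to 0.156) or without Des-/- replicate 3 (0.0647). Pdpn (0.27 ± 0.12) and Flt4 (-0.12 ± 0.11) did not pass.

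Cd163 takes up haemoglobin bound to haptoglobin. It read 8.56, 8.19 and 8.58 in TNFαDes-/- hearts, against 7.96, 7.31 and 7.49 in Des-/- hearts. The gap between the groups was narrow, from 7.96 on Des-/- replicate 1 to 8.19 on TNFαDes-/- replicate 2. The rise was 0.86 ± 0.18 (SE), or 1.81-fold (95% confidence interval 1.36 to 2.41; limma adjusted p = 0.0112), and the call was lost without TNFαDes-/- replicate 1 (0.80, adjusted p = 0.0558) or replicate 3 (0.79, 0.0581).

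Folr2 and Mrc1 rose by nearly the same amount. Folr2, the folate receptor of resident macrophages, read 7.22, 7.66 and 7.45 in TNFαDes-/- hearts, against 6.75, 6.95 and 6.91 in Des-/- hearts, a rise of 0.58 ± 0.13 (SE; 1.49-fold, limma adjusted p = 0.0153). Here Des-/- replicate 1 was the lowest Des-/- array. The Folr2 call was lost after quantile normalization (0.47, adjusted p = 0.0568) and without TNFαDes-/- replicate 3 (0.57, 0.0618). Mrc1, which binds mannose-bearing glycoproteins, read 9.21, 9.05 and 9.30 in TNFαDes-/- hearts, against 8.83, 8.52 and 8.51 in Des-/- hearts, a rise of 0.57 ± 0.12 (1.48-fold, adjusted p = 0.013). All TNFαDes-/- arrays were above Des-/- replicate 1, the nearest Des-/- array. The Mrc1 call was lost without TNFαDes-/- replicate 1 (0.56, adjusted p = 0.0574), TNFαDes-/- replicate 3 (0.51, 0.0621), Des-/- replicate 2 (0.52, 0.057) or Des-/- replicate 3 (0.51, 0.0564), and the rise was 0.38 after quantile normalization.

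The Mrc1 promoter is shown as the one with matches to the PU.1 core among the 4 genes that rose and have an entry. It holds 3, in capitals, all on the strand opposite to the gene, starting 180, 167 and 35 bases before its start; the promoters of Cd163 and Folr2 hold none of the 3 motifs, and that of Itgam holds 3 PU.1 cores.
Mrc1 (chr2:14229164-14229463, plus strand): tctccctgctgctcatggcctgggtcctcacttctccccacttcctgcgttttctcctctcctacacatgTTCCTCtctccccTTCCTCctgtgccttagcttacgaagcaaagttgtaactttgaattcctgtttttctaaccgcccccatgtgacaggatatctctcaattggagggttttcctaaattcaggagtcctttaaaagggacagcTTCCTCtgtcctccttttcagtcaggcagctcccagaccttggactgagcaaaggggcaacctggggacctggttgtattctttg

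Adgre1 and Itgam encode F4/80 and CD11b, a pair of proteins long used to recognise mouse macrophages and myeloid cells. Adgre1 read 8.24, 8.16 and 8.33 in TNFαDes-/- hearts, against 7.95, 7.62 and 7.68 in Des-/- hearts. The groups were apart by 0.21 between the nearest arrays. The rise was 0.49 ± 0.12 (SE), or 1.41-fold (95% confidence interval 1.17 to 1.70; limma adjusted p = 0.0183), the smallest of the 8. The call was lost without TNFαDes-/- replicate 1 (0.50, adjusted p = 0.0694), TNFαDes-/- replicate 3 (0.45, 0.0794), Des-/- replicate 2 (0.43, 0.0793) or Des-/- replicate 3 (0.46, 0.0741). Itgam read 4.37, 4.10 and 4.43 in TNFαDes-/- hearts, against 4.79, 4.26 and 4.53 in Des-/- hearts. The groups overlapped, the difference was -0.23 ± 0.15 (95% confidence interval -0.58 to 0.12; adjusted p = 0.334), and every array lay below its own median, so this probe set is not shown to be above background and says little about Itgam.

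Of 9 measured genes of integrin partners and activators, 2 rose and 3 fell (median -0.20), against 15.2% and 6.05% of all genes. After quantile normalization 1 rose and 4 fell. Itgb2, the beta chain with which CD11b pairs, read 7.51, 7.50 and 7.62 in TNFαDes-/- hearts, against 8.95, 8.72 and 8.76 in Des-/- hearts, and fell by 1.26 on the log2 scale (adjusted p in limma = 0.000148). Itgax, the sister alpha chain CD11c of dendritic cells and some macrophages, read 4.99, 5.44 and 5.35 in TNFαDes-/- hearts, against 8.05, 8.01 and 8.05 in Des-/- hearts, where the TNFαDes-/- values are near the array medians. The ligand gene Icam2 fell by 0.85 (adjusted p = 0.00144), and the integrin activator Fermt3 rose by 0.71 ± 0.13, or by 0.16 (adjusted p = 0.449) with probe sets named _s_at or _x_at left out. The other that rose, named after its values were seen, was the GTPase gene Rap1b (0.55 ± 0.16), a call lost under 10 of 19 alternative settings. It stood at 0.28 (adjusted p = 0.0507) after quantile normalization and at 0.37 (0.11) averaged over its probe sets, and was lost without any 1 TNFαDes-/- array, Des-/- replicate 2 or Des-/- replicate 3 (adjusted p up to 0.145). Probe sets with these suffixes can match transcripts of other genes.

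Cd14, the monocyte and macrophage co-receptor that hands lipopolysaccharide to TLR4, had the largest rise of the 10. It read 9.62, 9.54 and 9.68 in TNFαDes-/- hearts, against 7.79, 7.91 and 7.89 in Des-/- hearts. The spread within each group was small beside the distance between them, and Des-/- replicate 1 was the lowest array. The rise was 1.75 ± 0.10 (SE), or 3.36-fold (95% confidence interval 2.89 to 3.91; limma adjusted p = 1.67e-05), and 54 genes had a larger one. It held under all 19 alternative settings, at 1.44 to 1.82.

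Of 13 measured genes that work with CD14 in Toll-like receptor signalling, 5 rose and 0 fell (median 0.36), against 15.2% and 6.05% of all genes. Ly96, which encodes the MD-2 subunit of the lipopolysaccharide receptor, read 6.59, 6.07 and 6.52 in TNFαDes-/- hearts, against 5.26, 4.85 and 5.04 in Des-/- hearts (limma adjusted p = 0.000917). Its Des-/- values are close to the array medians, and no fold is given. Tlr2, the receptor for bacterial lipopeptides, rose by 0.72 ± 0.13 (SE), and Ly86, a partner of the Toll-like protein CD180, by 0.59 ± 0.11. The kinase gene Irak1 rose by 0.65 ± 0.18, a call lost without any 1 TNFαDes-/- array, Des-/- replicate 2 or Des-/- replicate 3 (adjusted p up to 0.118), and the adaptor gene Ticam1 by 0.36 ± 0.11, a call lost without any 1 of the 6 arrays (adjusted p up to 0.168). Tlr4 itself read 6.90, 6.72 and 6.88 in TNFαDes-/- hearts, against 6.77, 6.09 and 6.16 in Des-/- hearts, which did not pass (0.49 ± 0.18, adjusted p = 0.0809).

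Tyrobp encodes DAP12, the membrane adaptor through which several activating receptors of myeloid cells signal. It read 9.16, 9.10 and 9.19 in TNFαDes-/- hearts, against 9.42, 9.28 and 9.19 in Des-/- hearts. The groups met at 9.19, and the difference of -0.15 ± 0.10 (SE) did not pass (95% confidence interval -0.37 to 0.08; limma adjusted p = 0.356). After quantile normalization Tyrobp was lower by call, at -0.37 (adjusted p = 0.0175), and likewise with cyclic loess, at -0.39 (0.0105). Under these scalings all 8 genes that rose kept a change above 0.

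Of 16 measured genes of TYROBP-coupled receptors and their signalling, 4 rose and 2 fell (median -0.06), against 15.2% and 6.05% of all genes. After quantile normalization 2 rose and 3 fell. The receptor gene Cd300lb read 4.68, 4.32 and 4.50 in TNFαDes-/- hearts, against 5.75, 6.03 and 6.01 in Des-/- hearts (limma adjusted p = 0.000229), where the TNFαDes-/- values lie below the array medians. Trem2, the lipid-sensing receptor that signals through TYROBP, read 6.05, 5.90 and 5.81 in TNFαDes-/- hearts, against 6.73, 6.89 and 6.98 in Des-/- hearts, and fell by 0.95 (adjusted p = 0.000826). That value rests on an _s_at probe set; with such probe sets left out Trem2 stood at 0.04 (adjusted p = 0.847). The signalling genes Plcg2 (0.55 ± 0.11, or 0.40 with adjusted p = 0.0762 after quantile normalization) and Inpp5d (0.54 ± 0.09, or 0.23 with adjusted p = 0.17 averaged over its probe sets) rose, as did Cd300ld and the kinase gene Syk. Syk stood at -0.06 (adjusted p = 0.674) averaged over its probe sets and at 0.21 (0.124) after quantile normalization, and its call was lost under 9 of 19 alternative settings. With single arrays left out, the calls of Cd300ld and Syk were lost without TNFαDes-/- replicate 1, Des-/- replicate 2 or Des-/- replicate 3, that of Cd300ld also without TNFαDes-/- replicate 2 and that of Syk without TNFαDes-/- replicate 3 (adjusted p up to 0.101).

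Further genes of resident macrophages rose in part. Of 24 measured, 8 rose and 0 fell (median 0.27), against 15.2% and 6.05% of all genes, and 9 of the 24 had a change below 0. This list is bright, with 20 of the 24 above the median of every array. Among the 6085 genes with mean levels between those of Folr2 and Csf1r, 28.4% were higher, with a median of 0.21. After quantile normalization 7 of the 24 rose and 0 fell (median 0.06). Vsig4, a complement receptor of tissue macrophages, read 7.83, 7.57 and 8.01 in TNFαDes-/- hearts, against 6.60, 6.56 and 6.19 in Des-/- hearts, a rise of 1.36 ± 0.15 (SE; limma adjusted p = 0.000672). The chemokine gene Pf4 rose by 0.98 ± 0.12, C1qa, a chain of complement C1q, by 0.91 ± 0.14 (0.60 after quantile normalization) and the scavenger-like Fcrls by 0.85 ± 0.10, and these 4 passed under all 19 alternative settings. The other 4 were C1qb, C1qc, F13a1 and Ninj1; the calls of C1qb, C1qc and F13a1 were lost without TNFαDes-/- replicate 1, TNFαDes-/- replicate 3, Des-/- replicate 2 or Des-/- replicate 3 (adjusted p up to 0.0742), and that of Ninj1 after quantile normalization (0.21, adjusted p = 0.384). The Ninj1 call was also lost with probe sets named _s_at or _x_at left out (0.20, limma adjusted p = 0.148). Timd4 and Cx3cr1 lay below the median of every array.

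Genes of recruited monocytes and inflammatory macrophages were called in both directions. Of 16 measured, 3 rose and 3 fell (median 0.04), against 15.2% and 6.05% of all genes. Thbs1 rose by 0.97 ± 0.14 (SE; 0.47 averaged over its probe sets), the matrix gene Vcan by 0.76 ± 0.14 (averaged over its probe sets, 0.19 with adjusted p = 0.112) and the nuclear receptor gene Nr4a1 by 0.72 ± 0.09, while the lectin gene Lgals3 fell by 0.72 on the log2 scale (adjusted p in limma = 0.0093). The other 2 that fell, named after their values were seen, were Cd9 and Ccr2. Ccr2, the receptor that brings monocytes into tissue, read 6.84, 6.92 and 6.81 in TNFαDes-/- hearts, against 7.21, 7.09 and 7.38 in Des-/- hearts. The groups did not overlap, yet the call on its fall of 0.37 (adjusted p = 0.0421) was lost under 9 of 19 alternative settings. Among them were leaving out any 1 TNFαDes-/- array, Des-/- replicate 2 or Des-/- replicate 3 (adjusted p up to 0.165). In other settings the fall was larger: Ccr2 stood at -0.69 (adjusted p = 0.00307) averaged over its probe sets and at -0.46 (0.0242) after quantile normalization.

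Of 18 genes of the CSF1 receptor axis and of myeloid lineage factors, 2 rose and 4 fell (median -0.16), against 15.2% and 6.05% of all genes. After quantile normalization 1 rose and 7 fell. Il34, the second ligand of the CSF1 receptor, read 4.29, 4.67 and 4.41 in TNFαDes-/- hearts, against 5.28, 5.14 and 4.69 in Des-/- hearts, near or below the array medians (limma adjusted p = 0.0385, a call lost without TNFαDes-/- replicate 1 or 3 or Des-/- replicate 1 or 2, with adjusted p up to 0.144). Spi1, which encodes PU.1, read 6.39, 6.32 and 6.47 in TNFαDes-/- hearts, against 6.50, 6.41 and 6.42 in Des-/- hearts, and did not pass (-0.05 ± 0.10, adjusted p = 0.774). The transcription factor gene Mitf fell by 0.58 and Fli1 by 1.13, and Cebpb rose by 0.71 ± 0.21 (0.43 after quantile normalization). All 3 calls were lost without any 1 TNFαDes-/- array (adjusted p up to 0.145), those of Fli1 and Cebpb also without Des-/- replicate 3 and that of Cebpb without Des-/- replicate 2. Fli1 fell by 0.74 without Des-/- replicate 1.

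General leukocyte and macrophage genes changed in both directions. All 16 measured lay above the median of every array; 3 rose and 5 fell (median -0.09), against 15.2% higher and 6.05% lower among all genes. After quantile normalization 2 rose and 7 fell. Cd68, a glycoprotein of macrophage lysosomes, read 7.86, 7.93 and 7.71 in TNFαDes-/- hearts, against 9.56, 9.20 and 9.17 in Des-/- hearts, and fell by 1.48 on the log2 scale (adjusted p in limma = 2e-04). Mpeg1, the pore-forming perforin-2 of macrophages, fell by 1.69 (adjusted p = 9.51e-05). The oxidase subunit Cybb and the GTPase gene Rac2 fell by 1.01 and 0.89, and Ctss fell as well. Averaged over its probe sets, Rac2 fell by 0.48. The Fc receptor gene Fcgr3 and the actin-binding Aif1 rose. Aif1 was read on an _s_at probe set, a kind that can match transcripts of other genes. The Fc receptor chain gene Fcer1g (0.37 ± 0.10, adjusted p = 0.0354) also passed, but its call was lost under 9 of 19 alternative settings. It stood at 0.21 (adjusted p = 0.149) after quantile normalization, and the call was lost without any 1 TNFαDes-/- array, Des-/- replicate 2 or Des-/- replicate 3 (adjusted p up to 0.143). Ptprc, which encodes the leukocyte antigen CD45, stood at -0.45 ± 0.19 and did not pass (adjusted p = 0.125).

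Beside Cd163, 11 genes of scavenging and haem or iron handling were measured, of which 0 rose and 3 fell (median 0.02), against 15.2% and 6.05% of all genes. Hp encodes haptoglobin, the carrier through which CD163 takes up haemoglobin, and read 7.01, 7.28 and 7.33 in TNFαDes-/- hearts, against 8.06, 7.78 and 7.78 in Des-/- hearts, a fall of 0.66 on the log2 scale (adjusted p in limma = 0.00766). The iron exporter gene Slc40a1 fell by 0.74 and the lectin gene Clec10a, a marker of some macrophages and dendritic cells, by 1.13. The TNFαDes-/- values of Clec10a, 5.24, 5.38 and 5.40, are near the array medians. Hmox1, the haem oxygenase that acts after uptake, stood at 0.53 ± 0.18 and did not pass (adjusted p = 0.0659).

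**Figure D3:**
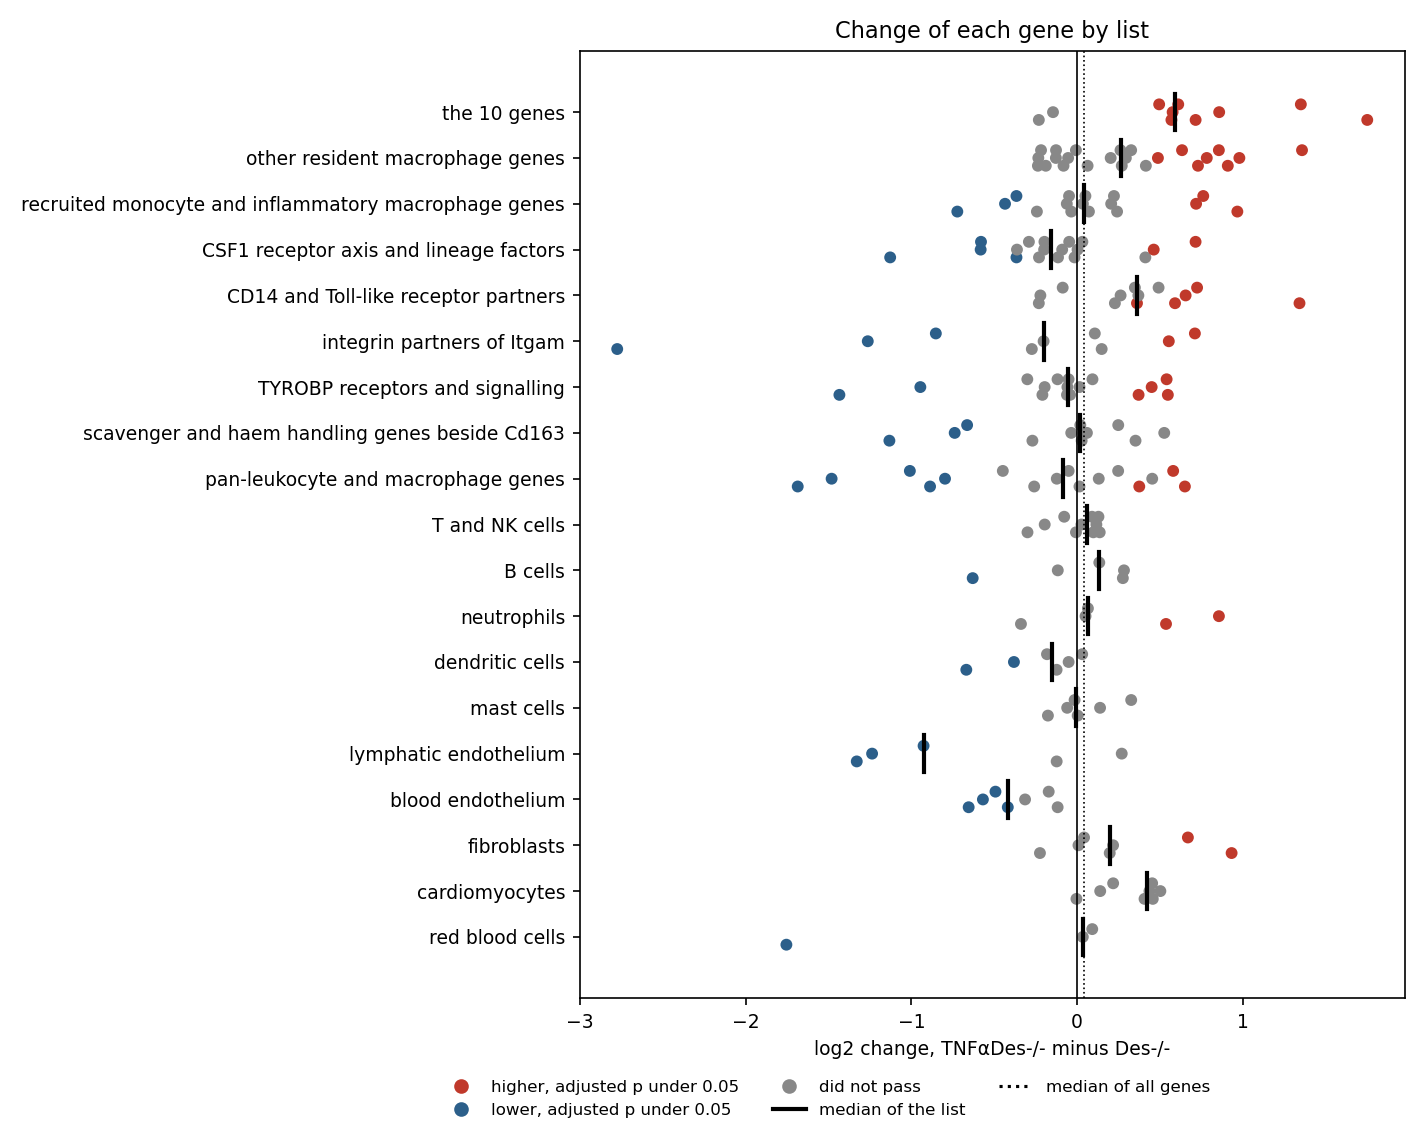
Each point is the log2 change of 1 gene, TNFαDes-/- minus Des-/-, by list; red and blue mark genes higher and lower at an adjusted p under 0.05, grey the rest, the black bar the median of the list and the dotted line the median of all genes (0.04). Of the 10 genes, 8 are red, whereas the partners of Itgam and the general leukocyte genes hold blue points, such as Itgb2 (-1.26) and Mpeg1 (-1.69); the leftmost point is Itgax, near background in TNFαDes-/- hearts.

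Markers of other cells that could carry some of the 10 transcripts were counted in the same way, and their part in the rises was not tested. The shares over all genes were 15.2% higher and 6.05% lower. Of 10 T and NK cell markers 0 rose and 0 fell, with a mean log2 level of 4.74 to 4.84 in TNFαDes-/- and 4.63 to 4.90 in Des-/- hearts. For 6 mast cell markers the counts were likewise 0 and 0, at 4.86 to 5.01 and 4.74 to 5.01. Only 3 of the 10 and 2 of the 6 lay above the median of every array, so these counts say little about either cell type. Of 5 neutrophil markers, 2 were called higher: S100a8, at 5.05 to 5.13 in TNFαDes-/- and 4.22 to 4.25 in Des-/- hearts, and S100a9, below the median of every array. The 5 had a mean level of 4.45 to 4.53 in TNFαDes-/- and 4.22 to 4.27 in Des-/- hearts, and none of them lay above the median of every array. Of 7 fibroblast markers, 2 rose, Dcn (0.93 ± 0.15) and Col1a2 (0.67 ± 0.11, or 0.30 with adjusted p = 0.136 after quantile normalization), and 0 fell, with a mean level of 11.01 to 11.07 in TNFαDes-/- and 10.58 to 11.11 in Des-/- hearts. After quantile normalization 1 fibroblast marker was higher, Dcn (0.57), and 3 were lower, Col3a1 (-0.60), Lum (-0.36) and Col1a1 (-0.28), and averaged over its probe sets Dcn stood at 0.45. Of 7 markers of blood endothelium, 4 fell, led by Egfl7 (-0.65 ± 0.11), with a mean level of 8.30 to 8.34 in TNFαDes-/- and 8.59 to 8.92 in Des-/- hearts. Of 8 cardiomyocyte markers 0 passed, at 13.99 to 14.04 in TNFαDes-/- and 13.46 to 14.13 in Des-/- hearts. Yet 7 of the 8 had a change above 0, with a median of 0.42, against 0.59 over the 10 genes. After quantile normalization the medians were -0.04 for these markers and 0.41 for the 10 genes. In that setting 2 of the 8 markers were lower, Ryr2 (-0.39) and Tnni3 (-0.30).

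The genes with the most similar pattern to each gene that rose were found by the root mean square difference over the 6 arrays, after centring each gene on its own mean. For Lyve1 they were Dnttip2 (0.046 log2 units) and Cebpd (0.055), and for Cd14 Snx10 (0.079) and Ctla2b (0.097). Csf1r was nearest to Pdcl3 (0.012) and Gsn (0.017), and Csf1 to Arl2bp (0.030) and Ubald1 (0.032). For Cd163 the nearest were Fgl2 (0.054) and Snap23 (0.061), for Mrc1 Kpna3 (0.021) and Unc45b (0.024), for Folr2 Alpl (0.055) and Faap24 (0.064), and for Adgre1 Cggbp1 (0.023) and Ctsh (0.026). None of the 10 was the nearest gene of another.

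**Figure D4:**
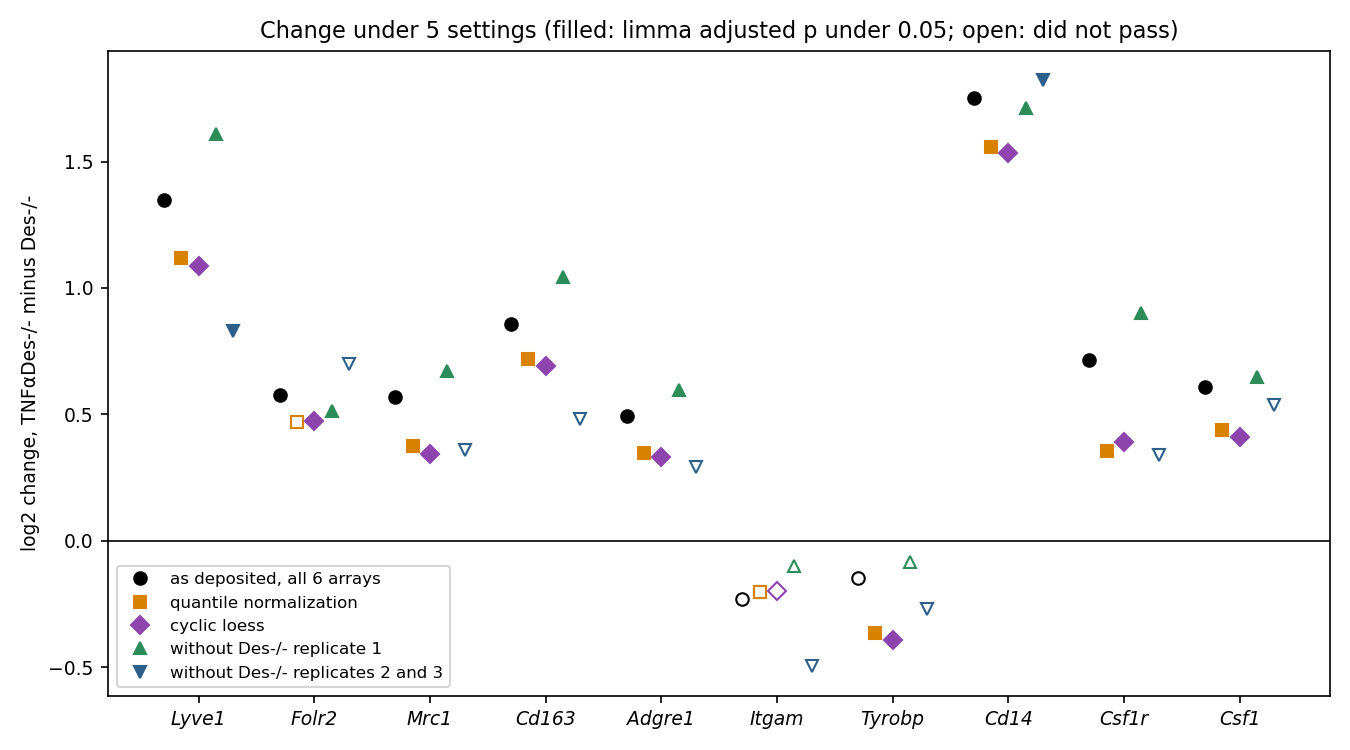
The log2 change of each gene, TNFαDes-/- minus Des-/-, is given as deposited, under 2 other scalings, and with Des-/- replicate 1 or Des-/- replicates 2 and 3 left out; filled symbols passed at an adjusted p under 0.05. The 8 genes that rose stay above 0 in each setting, Cd14 at 1.53 or more, and against Des-/- replicate 1 alone the filled symbols are Lyve1 (0.83) and Cd14 (1.82).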

How the data were processed

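Myocardial RNA of TNFαDes-/- and Des-/- mice was measured on Affymetrix mouse arrays, 3 per group, grouped by the labels. The authors deposited log2 values made with RMA, per the submitters' processing notes; whether all of its steps were applied is not stated, and the array distributions differ. Probe sets were named through the platform annotation, those with several genes or none were left out of gene tests, and the brightest probe set over the 6 arrays stood for each of 18193 genes. Genes were tested with limma 3.58.1 in R 4.3.3 (lmFit, eBayes) without a block, and p-values were adjusted over all 18193 by Benjamini-Hochberg, with calls at 0.05. Differences between probe sets were tested by exact permutation. Precision is limited by having 3 arrays a group.

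The members and lists were chosen with earlier results of these data known. The rule for named genes took all 10 members, from each list up to 4 genes past the test with the largest changes (where fewer passed, up to 2 of the brightest others), and for each member past the test the 2 genes nearest in pattern. Other list genes in the text were chosen after their values were seen. Alternatives were other scalings, fits, probe-set rules and arrays left out. Same-numbered arrays of the 2 groups had deviations that correlated at 0.25, 0.31 and -0.30, so the numbers were not taken as pairs.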

Additional observations from a re-analysis of the deposited data

How the results depend on the processing

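Cd14 and Lyve1 passed under all 19 alternatives, Csf1 under 18; the other calls and the arrays that end them stand with each gene. The number of the 10 genes higher was 3 to 8 with single arrays left out, against 1475 to 4257 of all 18193 genes. With Des-/- replicates 2 and 3 left out together, an alternative added after seeing the data, the median over the 10 was 0.42. Quantile normalization, cyclic loess and quantile normalization without Des-/- replicate 1 each called 1 of the 10 lower, Tyrobp, and gave a median over the 10 of 0.41, 0.40 and 0.38. All genes called numbered 8414 with array weights, 2068 to 5814 with single arrays left out and 1587 without Des-/- replicates 2 and 3. Of genes called, 53.6% were higher after quantile normalization and 51.8% after cyclic loess, against 71.5% as deposited.

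The labels do not say that replicate numbers mark pairs, and not every array correlated best with its own number. Whether the arrays were paired is not known. With the replicate block 8 of the 10 genes were higher and 0 lower, and 4278 genes were called; 1 scavenger gene was higher.

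With single arrays left out, the counts higher were 5 to 12 of 24 (other resident genes) and 0 to 3 of 18 (CSF1 receptor axis). They were 3 to 7 of 13 (Toll-like receptor partners), 1 to 3 of 9 (integrin partners) and 2 to 4 of 16 (TYROBP receptors). For scavenger genes they were 0 to 2 of 11, and for general leukocyte genes 2 to 5 of 16. The counts lower were 0 to 1 (other resident genes), 1 to 3 of 16 (recruited genes) and 0 to 3 (CSF1 receptor axis). Among all 18193 genes, 1475 to 4257 were higher and 557 to 1557 lower in those settings. Quantile normalization gave 1 higher and 7 lower on the CSF1 receptor axis, 1 integrin partner higher and 2 TYROBP genes higher, and cyclic loess gave the same with 1 other resident gene and 8 general leukocyte genes lower. Array weights gave 14 of 24 higher and 2 lower (other resident), 9 and 2 of 13 (Toll-like receptor partners) and 4 and 5 of 9 (integrin partners). They also gave 6 of 16 TYROBP genes lower, and 1 of 11 scavenger and 6 of 16 general leukocyte genes higher. In that setting 5501 of all 18193 genes were higher and 2913 lower. Of the 6085 genes between Folr2 and Csf1r in level, 54.4% were then higher and 10.2% lower. Recruited genes lower were 1 with median centring or all probe sets tested together, which also left 1 higher on the CSF1 receptor axis. Integrin partners higher were 1 with all probe sets, their mean, or _s_at and _x_at probe sets left out; the mean gave 2 TYROBP genes higher and 4 lower. Quantile normalization without Des-/- replicate 1 gave 1 other resident, 5 integrin, 5 scavenger and 8 general leukocyte genes lower, and 2 TYROBP genes higher. Without Des-/- replicates 2 and 3, the counts higher were 5 (other resident), 1 (recruited), 0 (CSF1 receptor axis), 1 (Toll-like receptor partners), 0 (integrin partners), 2 (TYROBP) and 1 (general leukocyte). The causes were not tested.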

Other observations

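Alas2, the haem synthesis enzyme of red blood cell precursors, averaged 6.08 ± 0.13 in TNFαDes-/- hearts and 7.83 ± 0.40 in Des-/- hearts (SD, n = 3 each), and fell by 1.75 log2 units with an adjusted p in limma of 0.000534. It was 1 of 3 measured red blood cell markers. The others, Hba-a1 and Slc4a1, did not pass, but both lay below the median of every array and say little. Of 6 dendritic cell markers, 2 fell and 0 rose, against 6.05% lower and 15.2% higher among all genes. Zbtb46, a transcription factor of classical dendritic cells and endothelium, read 5.47, 5.63 and 5.73 in TNFαDes-/- hearts, against 6.19, 6.28 and 6.37 in Des-/- hearts (adjusted p = 0.00348), with a difference of -0.67, or -0.33 averaged over its probe sets, and Cd209a lay below the median of every array. Of 5 B cell markers, Cd22 was called lower (adjusted p = 0.0139), but it was above the array median on 2 of 6 arrays. Its call was lost without TNFαDes-/- replicate 3 (adjusted p = 0.0648), Des-/- replicate 2 (0.0539) or Des-/- replicate 3 (0.0555).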
